A study of Mus musculus with 8 samples.

Results

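The surrogate light chain genes of the mouse are Igll1, Vpreb1, Vpreb2 and Vpreb3, 4 of the 37991 gene IDs in the count table. They were taken as the genes of this family, by a rule that uses no measured value, and all 4 were among the 13722 genes that passed the filter on low counts. The samples were B-cell-biased lymphoid progenitors from bone marrow, enriched for Kit-positive cells and then sorted by flow cytometry. There were 4 pools from H2afy-/- mice (H2afy_KO) and 4 pools from H2afy+/+ mice (H2afy_WT), and the mice of both genotypes were 5 to 12 weeks old. Each pool held RNA of 5000 to 15000 cells from 2 to 3 mice. The sources used here give neither strain nor sex. The product of H2afy is macroH2A1, a variant of histone H2A, and the comparison asks how its loss bears on the transcripts of a progenitor at the start of the B lineage.

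The surrogate light chain is made before any conventional light chain gene has been rearranged. Igll1 encodes lambda5, which resembles the joining and constant part of a light chain. Vpreb1 and Vpreb2 encode near-identical proteins that resemble the variable part. A lambda5 and a VpreB protein together pair with a newly made mu heavy chain and, with the signalling chains Cd79a and Cd79b, form the pre-B cell receptor, which tests that heavy chain and drives pre-B cells to divide. Vpreb3 encodes a related protein of the endoplasmic reticulum that binds immunoglobulin chains in the cell and is not part of the surface receptor. In mouse pro-B cells the factors Ebf1 and Tcf3 are known to switch on Igll1 and Vpreb1.

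Igll1 lies on chromosome 16 of mm9 (chr16:16860764-16864078, minus strand) and Vpreb1 lies next to it on the same strand (chr16:16868495-16870936), with 4416 bases between the gene models. Vpreb2 lies on the plus strand of the same chromosome (chr16:17980514-17981366), 1109.6 kb from Vpreb1. Vpreb3 is on chromosome 10 (chr10:75405802-75412402, plus strand). The 108 bases at the upstream end of the Vpreb1 gene model, on the side of its start, overlap Top3b on the opposite strand. The cDNA kit does not mark strand, so reads of that overlap cannot be assigned to either gene. The pseudogene Gm16221 lies inside the Vpreb3 gene model on the opposite strand, with a mean of 0.122 CPM in H2afy_KO and 0.417 CPM in H2afy_WT.

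The likeness of Vpreb1 and Vpreb2 limits what their separate counts mean, so the stretch of 120 coding bases in which they differ most is shown here, coding bases 268 to 387 counted from 1 at the start codon. Capitals mark the 6 bases that differ.
Vpreb1: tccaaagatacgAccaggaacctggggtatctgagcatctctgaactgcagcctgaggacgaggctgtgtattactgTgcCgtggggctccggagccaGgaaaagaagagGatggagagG
Vpreb2: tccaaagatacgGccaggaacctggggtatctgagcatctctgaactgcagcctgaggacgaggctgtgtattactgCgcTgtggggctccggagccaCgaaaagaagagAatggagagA
The full transcripts, 766 bases each, differed at 20 bases (97.4% identity), 9 of them in the 429 bases of coding sequence, and the longest identical run was 196 bases. Of the 668 windows of 50 bases, the read length, within the exons of either gene, 233 (34.9%) occurred more than once in the mm9 genome. Every such window of Igll1 (579) and of Vpreb3 (527) occurred once. A read from a repeated window can come from either Vpreb copy, and the sources used here do not say how the authors' counter treated such reads.

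The levels of the members moved together across pools, as given further on. The 250 bases before the start of each coding transcript are therefore also shown, from the mm9 genome with GENCODE M1 starts. For Vpreb1 and Vpreb3 these windows lie inside the gene models given above, which extend further upstream than the coding transcript used. Capitals mark 3 motifs, chosen after these sequences were seen, searched on both strands and not overlapping each other in these windows: CCCNNGGG, a form of the site bound by Ebf1; CAGGTG, an E-box of the kind bound by Tcf3; and ATGCAAAT, the octamer found in front of immunoglobulin variable genes.
Igll1, chr16:16864079-16864328, minus strand: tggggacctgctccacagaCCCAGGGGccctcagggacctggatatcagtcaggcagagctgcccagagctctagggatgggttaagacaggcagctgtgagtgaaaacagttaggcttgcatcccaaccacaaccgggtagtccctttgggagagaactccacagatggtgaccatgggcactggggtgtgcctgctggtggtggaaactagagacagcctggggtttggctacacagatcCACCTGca
Vpreb1, chr16:16869349-16869598, minus strand: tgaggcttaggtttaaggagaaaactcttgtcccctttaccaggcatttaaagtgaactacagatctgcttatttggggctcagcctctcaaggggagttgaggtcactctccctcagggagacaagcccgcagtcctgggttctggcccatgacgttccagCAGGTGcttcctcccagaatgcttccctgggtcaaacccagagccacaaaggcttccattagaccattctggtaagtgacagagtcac
Vpreb2, chr16:17980264-17980513, plus strand: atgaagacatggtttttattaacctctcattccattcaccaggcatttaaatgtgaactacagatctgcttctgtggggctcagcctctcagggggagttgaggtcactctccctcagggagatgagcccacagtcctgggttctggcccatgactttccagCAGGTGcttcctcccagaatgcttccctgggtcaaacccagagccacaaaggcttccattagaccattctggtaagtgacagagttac
Vpreb3, chr10:75410795-75411044, plus strand: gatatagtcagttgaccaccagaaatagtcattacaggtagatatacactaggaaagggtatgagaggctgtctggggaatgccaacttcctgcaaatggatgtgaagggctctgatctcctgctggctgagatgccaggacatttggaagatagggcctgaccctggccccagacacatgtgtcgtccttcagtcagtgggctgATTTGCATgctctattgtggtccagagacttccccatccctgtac
CAGGTG was present in front of Igll1, Vpreb1 and Vpreb2, and in 16.5% of 20756 promoters of protein-coding genes of the same length. CCCNNGGG was present in front of Igll1 only, and in 13.2% of all promoters. With 1 mismatch allowed it matched in Igll1, Vpreb1 and Vpreb2, and in 72.8% of all promoters. The octamer was present in front of Vpreb3 only, and in 1.66% of all promoters. The 120 bases nearest the start differed at 3 positions between Vpreb1 and Vpreb2. GGGAA, the core bound by Ikaros and not capitalised here, was present in front of Vpreb1, Vpreb2 and Vpreb3, and in 56.0% of all promoters. These matches describe letters in the windows and were not tested as binding sites.

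All 8 pools held the transcripts of the labelled cell type, read from the 7 progenitor markers Kit, Flt3, Il7r, Ly6d, Dntt, Rag1 and Cd34. These summed to 6365 to 8178 CPM in H2afy_KO pools and 7879 to 9390 CPM in H2afy_WT pools. Dntt held most of each sum, at 3298 to 5067 CPM in H2afy_KO and 5010 to 6235 CPM in H2afy_WT. Of the 7 markers 4 had a negative log2 fold change (49.9% of all genes), with a median of -0.26. At an unadjusted p under 0.05 in edgeR 3 were lower (3.69% of all genes). Groups did not overlap for 2, with H2afy_KO lower (2.35% of all genes). DESeq2 called 1 lower (0.539% of all genes), while edgeR called 0. Total counts were 21330088 to 29029765 per pool. H2afy itself ranged over 1423 to 1953 CPM in H2afy_KO pools and 1981 to 2567 CPM in H2afy_WT pools, a mean of 73.2% of the wild-type level (log2 fold change -0.45, SE 0.15, adjusted p = 0.504, edgeR). The sources used here do not say which exons were removed, and counts over the full gene are then no check of the labels. Immunoglobulin genes took 0.402%, 10.1%, 39.4% and 33.7% of counts in H2afy_KO 1 to 4, against 3.51%, 1.004%, 19.6% and 13.01% in H2afy_WT 1 to 4. In the same pools the 7 plasma cell markers, all detected, summed to 176 to 20630 CPM in H2afy_KO and 594 to 9136 CPM in H2afy_WT. The 8 pro-B and pre-B markers, all detected, summed to 691 to 1436 CPM in H2afy_KO and 1435 to 2382 CPM in H2afy_WT, so the ranges only just overlapped. Of these 8 markers all had a negative log2 fold change (49.9% of all genes), with a median of -0.86. At an unadjusted p under 0.05 in edgeR 6 were lower (3.69% of all genes). Groups did not overlap for 3, with H2afy_KO lower (2.35% of all genes). DESeq2 called 2 lower (0.539% of all genes), while edgeR called 0. For 6 mature B cell markers the sums were 249 to 368 CPM in H2afy_KO and 296 to 401 CPM in H2afy_WT. Cd37 held most of each sum, at 217 to 320 CPM in H2afy_KO and 276 to 389 CPM in H2afy_WT. It alone of the 6 had a negative log2 fold change (49.9% of all genes), and the median was 0.44. The 5 plasmacytoid dendritic markers summed to 773 to 1100.5 CPM in H2afy_KO and 657 to 995 CPM in H2afy_WT. Of these 0 had a negative log2 fold change, and DESeq2 called 2 higher. The 7 granulocyte and monocyte markers summed to 738 to 3513 CPM in H2afy_KO and 1044 to 4777 CPM in H2afy_WT. Of these 4 were negative, and DESeq2 called 1 lower and 1 higher (0.897% of all genes in either direction). EdgeR called 0 in each list. The part of these other cells in the results below was not tested.

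All 4 surrogate light chain genes were lower in every H2afy_KO pool than in any H2afy_WT pool. Their mean levels in H2afy_KO were 27.2% to 36.6% of those in H2afy_WT. None of the 4 passed the edgeR quasi-likelihood test adjusted over all genes, and pools of 1 genotype also differed several-fold from each other. Values are CPM, read counts scaled to the TMM-adjusted size of each library. In bulk samples, fewer cells of a type and less RNA per cell cannot be told apart.

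Igll1, the lambda5 gene, had 143, 314, 68.1 and 330.5 CPM in H2afy_KO 1 to 4, against 909.5, 1252, 593 and 381 CPM in H2afy_WT 1 to 4. The groups did not overlap, but the highest knockout pool (H2afy_KO 4) was close to the lowest wild-type pool (H2afy_WT 4), and the lowest pool of all was H2afy_KO 3. The means were 214 ± 129 CPM over H2afy_KO pools and 784 ± 380 CPM over H2afy_WT pools (SD, n = 4 each), a log2 fold change of -1.87 (SE 0.59, adjusted p = 0.519, edgeR). Within a genotype the highest pool exceeded the lowest 4.85-fold in H2afy_KO and 3.29-fold in H2afy_WT. By mean level Igll1 ranked 805 of the 13722 tested genes in H2afy_KO and 107 in H2afy_WT.

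Vpreb1, which encodes the variable-like partner of lambda5, had 14.3, 38.4, 10.2 and 35.5 CPM in H2afy_KO 1 to 4, against 114, 115, 59.1 and 41.3 CPM in H2afy_WT 1 to 4. The pools kept nearly the order seen for Igll1, with H2afy_KO 3 and H2afy_KO 1 lowest. The log2 fold change was -1.74 (SE 0.54, adjusted p = 0.510, edgeR), with means of 24.6 ± 14.4 CPM over H2afy_KO pools and 82.3 ± 37.8 CPM over H2afy_WT pools (SD, n = 4 each).

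Vpreb2, the second copy, had 18.5, 25.9, 8.19 and 27.97 CPM in H2afy_KO 1 to 4, against 67.0, 76.2, 36.5 and 40.4 CPM in H2afy_WT 1 to 4. Its difference was the smallest of the 4, and its spread within each genotype was the narrowest, 3.42-fold in H2afy_KO and 2.09-fold in H2afy_WT. Its means were 20.1 ± 8.94 CPM over H2afy_KO pools and 55.0 ± 19.6 CPM over H2afy_WT pools (SD, n = 4 each), a log2 fold change of -1.45 (SE 0.40, adjusted p = 0.467, edgeR). Vpreb2 was the member that passed DESeq2, at an adjusted p of 0.00772. With the counts of Vpreb1 and Vpreb2 summed as 1 gene, which removes any effect of how counted reads were split between them, the log2 fold change was -1.62 (SE 0.48, adjusted p = 0.491, edgeR).

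Vpreb3, whose protein binds immunoglobulin chains inside the cell, had 33.3, 89.2, 21.2 and 81.3 CPM in H2afy_KO 1 to 4, against 278, 290.0, 145 and 113 CPM in H2afy_WT 1 to 4. Although it lies on another chromosome, its 8 pools ranked in the same order as those of Vpreb1. The means were 56.3 ± 34.0 CPM over H2afy_KO pools and 207 ± 90.4 CPM over H2afy_WT pools (SD, n = 4 each), a log2 fold change of -1.88 (SE 0.56, adjusted p = 0.496, edgeR).

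**Figure D1:**
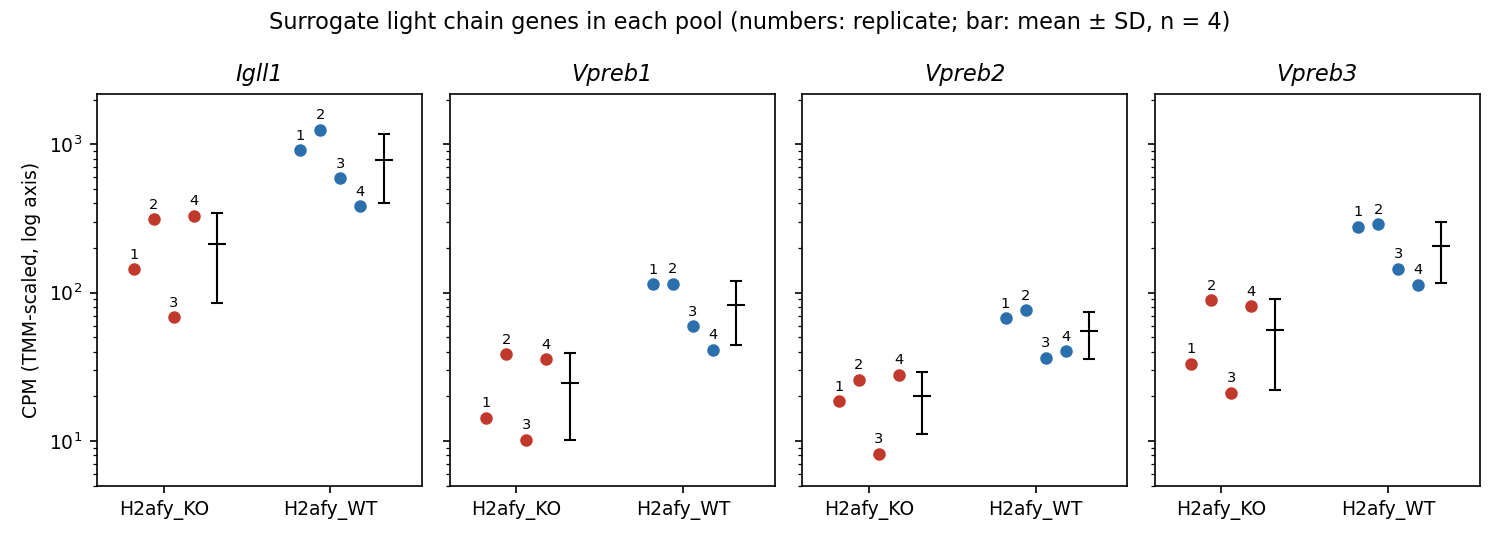
Each panel plots the CPM (log axis) of 1 surrogate light chain gene in the 4 H2afy_KO pools (red) and the 4 H2afy_WT pools (blue), with the replicate number above each point and the mean ± SD (n = 4) as a black bar. All H2afy_KO points lie below all H2afy_WT points in each panel, and H2afy_KO 3 is the lowest pool of every gene, at 68.1 CPM for Igll1.

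Of the 13722 genes tested, the edgeR fit called 0 (0%) at an adjusted p under 0.05, and limma-voom called 0. At an unadjusted p under 0.05, all 4 members were lower, as were 3.69% of all genes (507), while 3.88% were higher. Groups that did not overlap, with H2afy_KO lower, were found for all 4 members and for 2.35% of all genes (2.18% with H2afy_KO higher). A negative log2 fold change was found for 49.9% of all genes. DESeq2 called 0.539% of genes lower, and of the members it called Vpreb2 (adjusted p = 0.00772), with Vpreb3 at 0.0514, Igll1 at 0.0701 and Vpreb1 at 0.109. Same-numbered pools deviated together (r = 0.188 to 0.407 across genes), though some differently numbered pools correlated more, up to 0.524. The replicate number was therefore also fitted as a block, although the labels do not state a pairing. EdgeR with the block called 0 members (adjusted p from 0.102 for Vpreb2 to 0.401 for Igll1) and 0.0802% of all genes lower. DESeq2 with the block called all 4 members (adjusted p = 0.0192 for Igll1, 0.0319 for Vpreb1, 6.0e-07 for Vpreb2 and 0.00982 for Vpreb3) and 1.95% of all genes lower, or 4.02% in either direction. Between same-numbered pools, Igll1 in H2afy_KO stood at 15.8%, 25.1%, 11.5% and 86.7% of its H2afy_WT level for pairs 1 to 4. Pair 4 differed least for each of the 4 genes, with Vpreb1 at 86.0%, Vpreb2 at 69.2% and Vpreb3 at 71.7%.

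Compared per length of the coding transcript, Igll1 was the most abundant member in every pool, at 61.9% to 68.1% of the family's summed CPM per kb in H2afy_KO and 64.6% to 70.7% in H2afy_WT. Vpreb3 came next, at 18.1% to 22.3% in H2afy_KO and 19.0% to 23.0% in H2afy_WT, so the order of Igll1 above Vpreb3 above the Vpreb copies held in all 8 pools. Igll1 per kb exceeded the sum of Vpreb1 and Vpreb2 per kb by 3.91-fold to 5.50-fold in H2afy_KO and by 4.93-fold to 6.92-fold in H2afy_WT. The ranges overlapped. Windows of the read length that are repeated in the genome were 34.9% for each Vpreb copy and 0% for Igll1 and Vpreb3. If reads from them were not counted, the levels of the Vpreb copies are too low in these comparisons.

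Ratios of Vpreb1 and Vpreb3 to Igll1 did not differ between genotypes beyond the spread of the pools. The log2 ratio of Vpreb1 to Igll1 averaged -3.07 ± 0.26 in H2afy_KO and -3.24 ± 0.19 in H2afy_WT (SD, n = 4 each), a difference of 0.17 (2-sided exact permutation p = 0.4, adjusted 0.48 over 6 ratios), or 0.056 to 0.25 with each pool left out in turn, lowest without H2afy_KO 3. The log2 ratio of Vpreb3 to Igll1 averaged -1.91 ± 0.19 in H2afy_KO and -1.90 ± 0.20 in H2afy_WT, a difference of -0.0066 (exact permutation p = 0.971, adjusted 0.971). These differences were smaller than the spread between pools of a genotype, which does not show that the ratios were equal.

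The balance of the Vpreb copies varied between pools. Vpreb2 made up 56.3%, 40.3%, 44.6% and 44.1% of the summed Vpreb1 and Vpreb2 counts in H2afy_KO 1 to 4, against 37.0%, 39.9%, 38.2% and 49.5% in H2afy_WT 1 to 4. H2afy_KO 1 (95% exact Clopper-Pearson interval 53.3% to 59.4%, 1033 counts) and H2afy_WT 4 (47.3% to 51.6%, 2173 counts) stood apart from H2afy_WT 1 (35.7% to 38.3%, 5357 counts) by more than counting error, which is all these intervals cover. H2afy_KO 1 was the only pool with more Vpreb2 than Vpreb1 counts. Between genotypes the log2 ratio of Vpreb2 to Vpreb1 averaged -0.21 ± 0.40 in H2afy_KO and -0.52 ± 0.33 in H2afy_WT, a difference of 0.31 (exact permutation p = 0.314, adjusted 0.471, n = 4 each). Without H2afy_KO 1 it was 0.11, and without H2afy_WT 4 it was 0.47.

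Igll1 was also set against 3 other genes of early B-lineage cells. Its log2 ratio to Ebf1, a factor that specifies the lineage, averaged 0.34 ± 0.28 for H2afy_KO and 0.87 ± 0.19 for H2afy_WT (difference -0.53, exact permutation p = 0.0571, adjusted 0.257, n = 4 each). H2afy_KO 1, 2 and 3 lay below all H2afy_WT pools, and H2afy_KO 4 was level with H2afy_WT 4. Relative to Cd79a, a signalling chain of the pre-B receptor, Igll1 averaged -0.44 ± 1.09 in H2afy_KO and 0.56 ± 0.30 in H2afy_WT on the log2 scale (difference -1.002, exact permutation p = 0.0857, adjusted 0.257). That difference was -0.48 without H2afy_KO 3, where Cd79a had 277 CPM beside 68.1 CPM of Igll1. The ratio to Rag1, part of the enzyme that cuts antigen receptor genes, averaged 1.65 ± 0.44 in H2afy_KO and 1.96 ± 0.40 in H2afy_WT (difference -0.30, exact permutation p = 0.314, adjusted 0.471). It was -0.14 without H2afy_KO 1, -0.17 without H2afy_WT 3, and -0.49 without H2afy_KO 4 or without H2afy_WT 4. The smallest p that 4 pools against 4 allow is 0.0286. Rag1 itself was lower in every H2afy_KO pool than in any H2afy_WT pool. Its mean was 198 ± 91.2 CPM over wild-type pools and 63.2 ± 28.9 CPM over knockout pools (SD, n = 4 each). The log2 fold change was -1.65 (SE 0.47, adjusted p = 0.475, edgeR), between those of Vpreb1 and Vpreb2. Rag1 was called by DESeq2 (adjusted p = 0.00240), DESeq2 with the replicate block (5.1e-15) and edgeR with that block (0.0467).

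**Figure D2:**
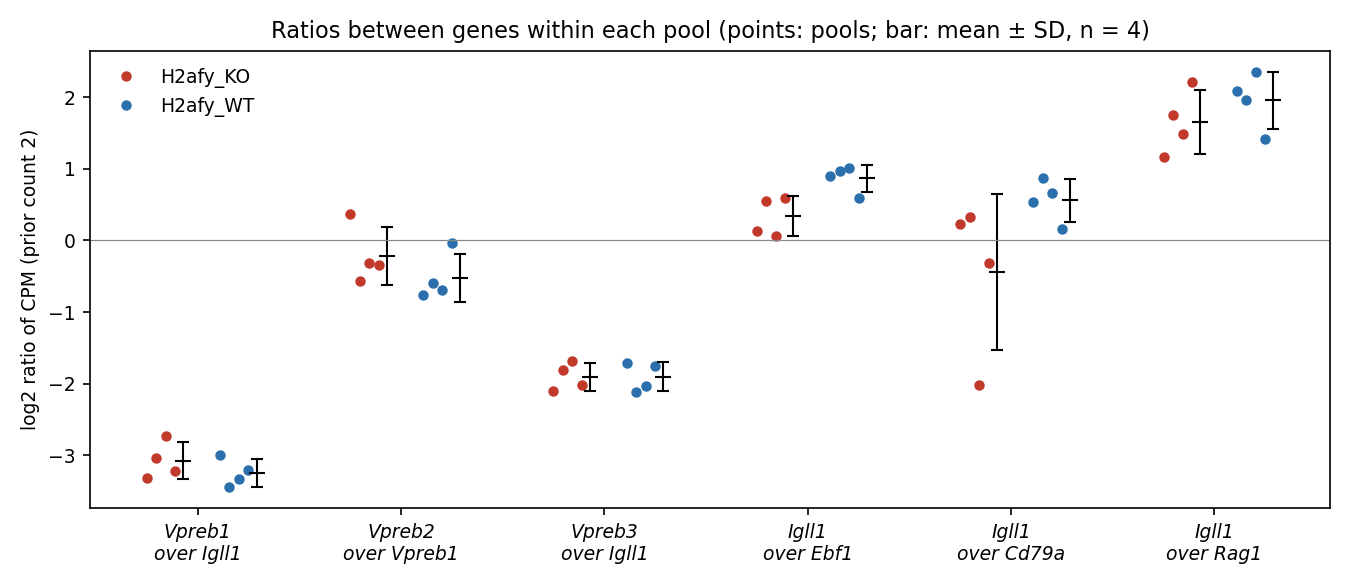
Points are the log2 ratios of CPM (prior count 2) between pairs of genes in each H2afy_KO pool (red) and each H2afy_WT pool (blue), with the mean ± SD (n = 4) as a black bar. The ratios among the members and that to Rag1 overlap widely between genotypes. The means of Igll1 over Ebf1 are 0.34 in H2afy_KO and 0.87 in H2afy_WT, and 1 H2afy_KO pool sets Igll1 over Cd79a apart at -2.02.

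Levels of the members were also read beside the immunoglobulin share of each pool. Among the H2afy_WT pools, both with the lowest shares (H2afy_WT 2 and 1) had the highest levels of all 4 genes. Among the H2afy_KO pools this order did not hold: H2afy_KO 1, with the lowest share of all pools, had the second lowest level of each member, and H2afy_KO 3, with the highest share, had the lowest. Divided by counts outside immunoglobulin genes, Igll1 had 80.9 to 407 CPM in H2afy_KO and 458 to 1484 CPM in H2afy_WT, and the groups did not overlap for any of the 4 genes on this scale or on plain CPM of all counts. With the immunoglobulin share as a covariate the log2 fold change of Igll1 was -1.76 (SE 0.70, adjusted p = 0.555, edgeR). Without H2afy_KO 3 and 4, the pools of highest share, it was -1.77 (SE 0.59, adjusted p = 0.879, edgeR).

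**Figure D3:**
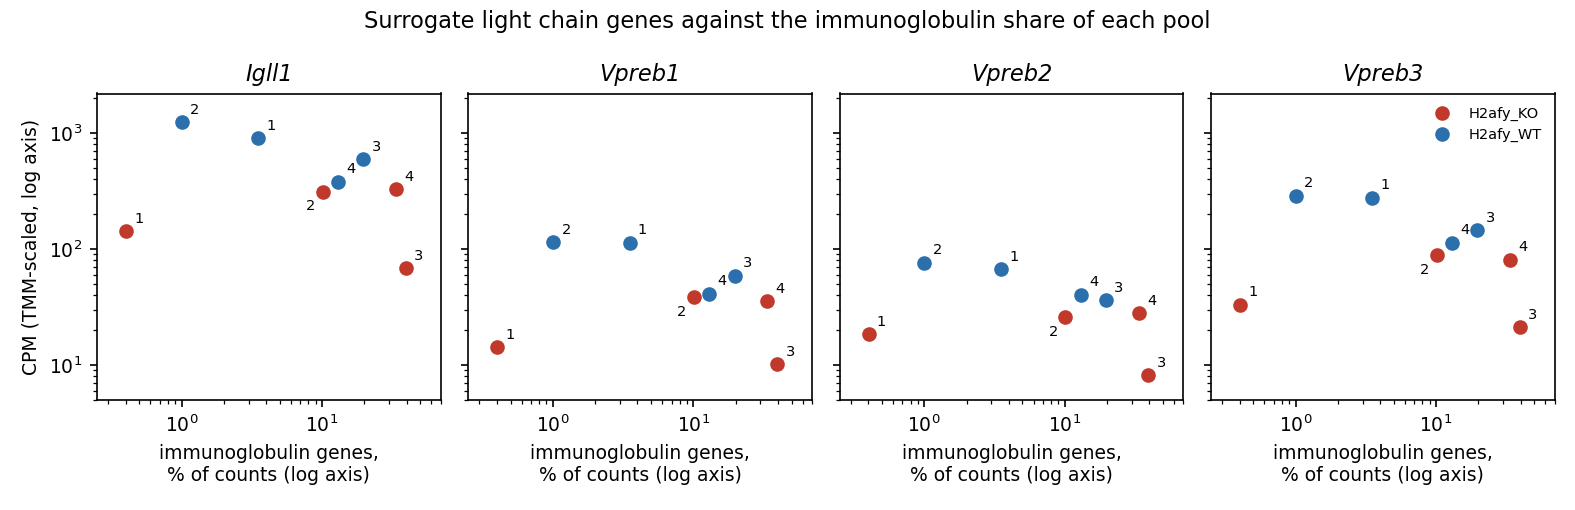
Each panel sets the CPM of 1 member (log axis) against the share of counts in immunoglobulin genes (percent, log axis) for the H2afy_KO pools (red) and H2afy_WT pools (blue), labelled by replicate number. H2afy_KO 1, at a share of 0.402%, has 143 CPM of Igll1, while H2afy_WT 2, at 1.004%, has 1252 CPM.

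The other parts of the pre-B receptor and its signalling chain were taken as a list of 16 genes, all tested. In edgeR 0 passed in either direction, 10 had a negative log2 fold change (49.9% of all genes), and the median was -0.21, beside 0.00074 over all genes. Groups did not overlap for 4 of them, all lower in H2afy_KO (2.35% of all genes). DESeq2 called 2, both lower (0.539% of all genes), given here with the fold changes and SE of edgeR. They were Blnk, the adaptor that links the receptor to its kinases (log2 fold change -0.78, SE 0.20, DESeq2 adjusted p = 0.0283), and Prkcb, a protein kinase C (-1.11, SE 0.31, DESeq2 adjusted p = 0.0414). The kinase gene Blk was at -0.62 (SE 0.22). Cd79a and Cd79b, the signalling chains, were at -0.93 (SE 0.37) and -0.45 (SE 0.25). Ighm, the mu heavy chain with which the surrogate light chain pairs, was at 1.64 (SE 1.42), with 2899 to 275287 CPM in H2afy_KO and 5136 to 91046 CPM in H2afy_WT.

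Of 17 transcription factors that act at these genes or at the start of the B lineage, all tested, 0 passed in edgeR in either direction, and 10 had a negative log2 fold change, beside 49.9% of all genes, with a median of -0.061. At an unadjusted p under 0.05, 5 were lower (3.69% of all genes) and 1 was higher (3.88%). Both lists were chosen with results of these data known. DESeq2 called 2 lower and 1 higher, again given with the fold changes of edgeR, and 0.897% of all genes in either direction. The lower were Ebf1, averaging 157 ± 73.4 CPM over H2afy_KO pools and 418 ± 179.6 CPM over H2afy_WT pools (SD, n = 4 each, -1.41 on the log2 scale, SE 0.45, DESeq2 adjusted p = 0.0136), and Foxo1 (-0.90, SE 0.22, DESeq2 adjusted p = 0.0217). The higher was Irf8, a factor of B cells, monocytes and dendritic cells, with 324 ± 38.9 CPM in H2afy_KO and 160 ± 26.0 CPM in H2afy_WT (1.02, SE 0.15, DESeq2 adjusted p = 1.4e-06), which edgeR with the replicate block also called (adjusted p = 0.0420, with 0.109% of all genes called in either direction). Lef1, a factor known to act at the Igll1 and Vpreb1 promoters in mouse pro-B cells, was at -1.95 (SE 0.55, adjusted p = 0.473, edgeR). Tcf3, which encodes the E2A proteins, was at -0.25 (SE 0.28), and Ikzf1, which encodes Ikaros, at -0.068 (SE 0.13).

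**Figure D4:**
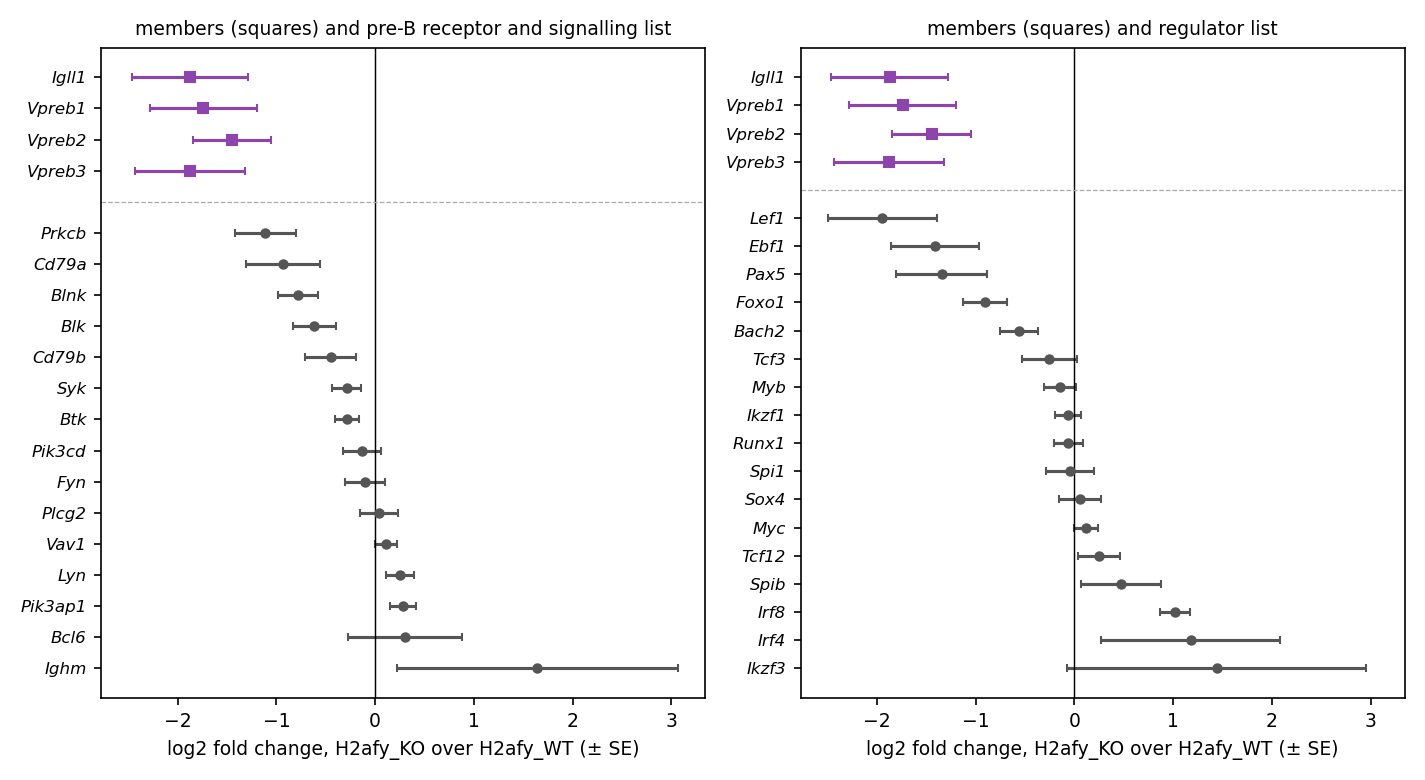
Log2 fold changes (H2afy_KO over H2afy_WT, ± SE, edgeR) of the 4 members (purple squares) above the pre-B receptor and signalling list (left) and the regulator list (right), with 1 gene of the left list not shown. The members lie between -1.88 and -1.45, near Lef1, Ebf1 and Pax5, while Ighm is at 1.64 with a wide error.

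The 4 members went up and down together across pools. Pearson correlations of log2 CPM between pairs of members were 0.963 to 0.998 over the 8 pools and 0.905 to 0.996 after each genotype's mean was subtracted. They are given as a description, since the pools share their genotype groups and library scaling. Of 9603 other genes with a mean of at least 5 CPM, those most like the members' mean over the 8 pools included Ebf1 (r = 0.993), Pde2a (0.990), Gfra2 (0.989), Akap12 (0.985) and Bst1 (0.982). With the genotype means subtracted they included Gfra2 (0.993), Ebf1 (0.987), Pde2a (0.977), Cecr2 (0.967) and Hes1 (0.966). Pde2a encodes a cyclic nucleotide phosphodiesterase, Gfra2 a receptor of neurturin, Akap12 a scaffold of protein kinase A, and Bst1 the surface protein BP-3 of early B cells. Pde2a had a mean of 80.1 CPM in H2afy_KO and 241 CPM in H2afy_WT, and Gfra2 one of 21.4 CPM in H2afy_KO and 61.8 CPM in H2afy_WT.

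The genes beside the members were described in the same fit. Of 46 annotated genes within 200 kb of a member, 25 were tested and 0 passed in edgeR. At an unadjusted p under 0.05 there were 4, beside 3.69% of all genes lower and 3.88% higher. A negative log2 fold change was found for 18 of the 25 (49.9% of all genes), and the median was -0.21, beside 0.00074 over all genes. Their groups overlapped in all 25. The 4 with the highest levels were Smarcb1 (-0.35, SE 0.16), a subunit of a chromatin remodeller, Ppm1f (-0.26, SE 0.19), the cytokine gene Mif (-0.35, SE 0.22) and Klhl22 (-0.15, SE 0.14). Top3b, which overlaps the Vpreb1 gene model, averaged 57.7 ± 4.09 CPM over H2afy_KO pools and 66.9 ± 6.52 CPM over H2afy_WT pools (SD, n = 4 each), at -0.21 (SE 0.12). Of genes chosen after their values were seen, Chchd10, close to Vpreb3, was lowest at -1.46 (SE 0.45, adjusted p = 0.473, edgeR). Derl3, an endoplasmic reticulum protein of secretory cells, was highest at 1.88 (SE 1.19, adjusted p = 0.763, edgeR). Chchd10 had means of only 1.49 CPM in H2afy_KO and 4.12 CPM in H2afy_WT. It lies inside the Mmp11 gene model on the opposite strand, so reads of that overlap cannot be assigned to either gene. Mmp11 had means of 37.5 CPM in H2afy_KO and 76.8 CPM in H2afy_WT, at -1.03 (SE 0.44, adjusted p = 0.656, edgeR).

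**Figure D5:**
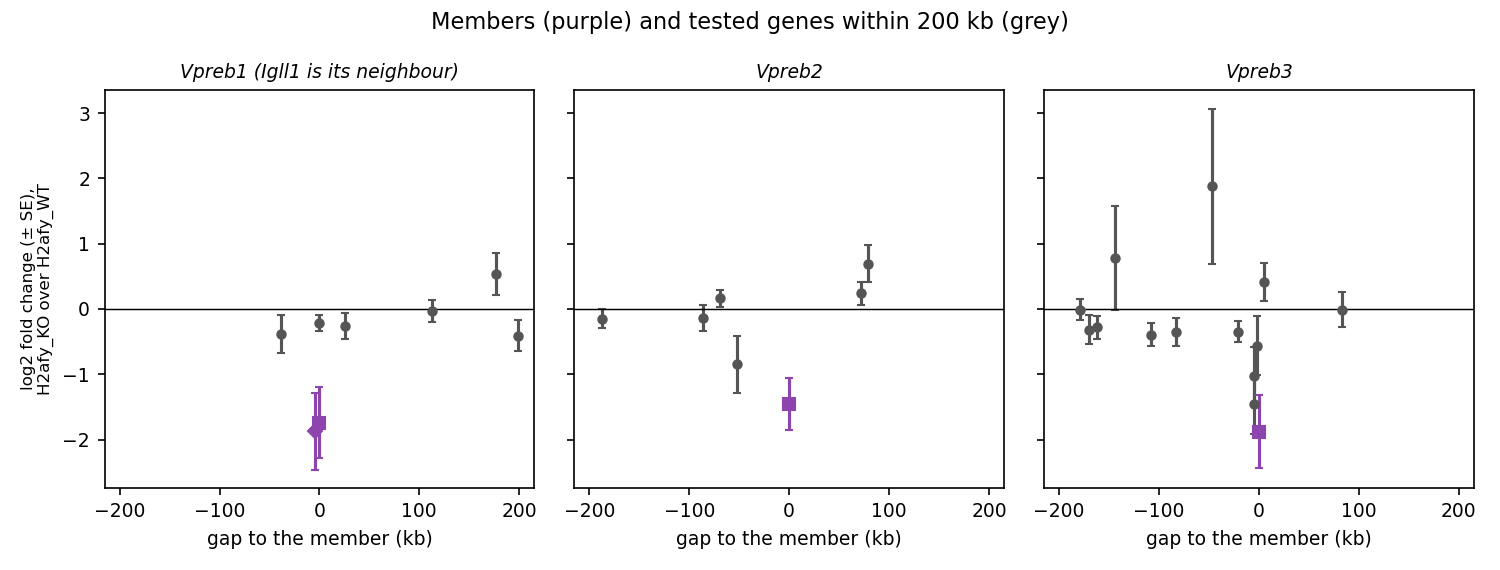
Log2 fold changes (H2afy_KO over H2afy_WT, ± SE, edgeR) of tested genes within 200 kb (grey circles) against their gap to the member in kb, with the member itself in purple (Igll1 as a diamond beside Vpreb1). Near Vpreb1 and Vpreb2 the neighbours lie between -0.84 and 0.69, while the members there lie between -1.87 and -1.45. Near Vpreb3, itself at -1.88, the neighbours spread more widely, from -1.46 to 1.88.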

How the data were processed

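Kit-enriched, sorted bone marrow progenitors gave cDNA from a low-input kit and single reads of 50 bases, per the labels' protocols. Per the submitters' processing notes, HISAT2 2.0.6 placed the reads on mm9. The sources used here name neither the gene counter nor its strand setting. The table the authors deposited holds raw read counts per Ensembl gene. GENCODE M1 (NCBIM37, the assembly of mm9) named 37205 of 37991 IDs, and 786 had no match. P-values measure the spread between pools, whose mice may overlap as far as the labels tell. No pool repeated another (chi-square over its degrees of freedom at least 99.5 in 28 pairs).

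Genes were tested by robust quasi-likelihood in edgeR (4.0.16) after TMM scaling and filterByExpr at a minimum count of 10, with Benjamini-Hochberg adjustment over 13722 genes, with a threshold of 0.05, in R 4.3.3. The common biological coefficient of variation was 0.390. Alternatives used DESeq2 (1.42.0), limma-voom (3.58.1) with sample weights, other scalings and filters, covariates and left-out pools. Ratios between genes used log2 CPM with a prior count of 2 and exact permutation tests over 70 assignments. The edgeR, DESeq2 and limma-voom fits and the replicate-block fits were also run on simulated data. The outcome is not reported here and is not used to back any call. Immunoglobulin genes were 258 annotated genes of the heavy, kappa and lambda loci. Ighd was not matched by name and is not used here.

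Same-numbered pools deviated from their group means together (r = 0.190, 0.188, 0.355 and 0.407 across genes), all over 0.1, so the numbers were read as pairing pools, which the labels do not state. Some differently numbered pools correlated more, H2afy_KO 1 with H2afy_WT 2 at 0.524 and H2afy_KO 3 with H2afy_WT 4 at 0.454. The rule for the members uses no measured value, but the members and gene lists were proposed with earlier results of these data known. Named genes were the members, H2afy, the partners of ratios, the 4 list members of smallest p in each list, the 4 flanking genes of highest level and the 6 genes most like the members by each of 2 correlations. Cd79b, Ighm, Tcf3, Ikzf1, Pax5 and Top3b were added for their role or position, and Igkc and Igj for their place beside the surrogate light chain. Chchd10, Derl3, Mmp11, Cd37, Dntt and the pseudogene Gm16221 were added after their values were seen. A gene that these rules name is not reported here.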

Additional observations from a re-analysis of the deposited data

How the results depend on the processing

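Each of the 4 members kept a negative log2 fold change under all of its 19 or 20 alternatives: -2.16 to -1.55 for Igll1, -2.04 to -1.48 for Vpreb1, -1.65 to -1.19 for Vpreb2 and -2.19 to -1.60 for Vpreb3. These extremes came from leaving out 1 pool at a time. Over all fits of the members with 1 pool left out, the edgeR adjusted p was 0.419 to 0.894. Calls were gained under DESeq2 for Vpreb2 (-1.45), and under DESeq2 with the replicate block for Igll1 (-2.04), Vpreb1 (-1.85), Vpreb2 (-1.52) and Vpreb3 (-2.02). The edgeR replicate block called no member.

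The number of genes called over all genes was 0 in the main fit, 118 with DESeq2, 520 with DESeq2 and the replicate block, 15 with edgeR and the replicate block, 16 with no filter on low counts, 5 with upper-quartile factors, 2 with a filter of 5 CPM in 4 samples, 5 without immunoglobulin genes, 3 with the immunoglobulin share as a covariate, and 0 to 1 with each pool left out. Over all genes the shares called were 0.897% with DESeq2, 4.02% with DESeq2 and the replicate block, and 0.109% with edgeR and the block. Of the 16 genes of the pre-B receptor list, 2 were called with DESeq2 and 4 with its block. Of the 17 genes of the regulator list, 3 were called with DESeq2, 6 with DESeq2 and the replicate block, 1 with edgeR and the block, and 1 with no filter. Among the 25 tested flanking genes 4 were called with DESeq2 and the block. The cause of these differences was not tested. The ratio of Vpreb3 to Igll1 changed sign with each of 4 pools left out (-0.081 to 0.059), around a difference near 0. With exact sign flips over the 4 pairs, a replicate block for ratios, the smallest possible p is 0.125, and with 3 pools against 4 it is 0.0571.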

Other observations

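The surrogate light chain is replaced by a conventional light chain in maturing B cells, and transcripts of both kinds were present in the same pools. Igkc, the kappa constant gene, had 191, 19363, 142189 and 86042 CPM in H2afy_KO 1 to 4, against 7336, 1364, 55289 and 26778 CPM in H2afy_WT 1 to 4. Igj, which encodes the joining chain of secreted antibody, had 32.4 to 18967 CPM in H2afy_KO and 282 to 8638 CPM in H2afy_WT. Groups overlapped for both genes. The 7 plasma cell markers, Igj among them, summed to 176, 5439, 20630 and 17477 CPM in H2afy_KO 1 to 4. In H2afy_WT 1 to 4 they summed to 2281, 594, 9136 and 6395 CPM. Which cells held the Igkc transcripts was not tested. In H2afy_KO 3 the Igkc level was the highest of all pools and Igll1, at 68.1 CPM, the lowest. In H2afy_KO 1 both were low, at 191 CPM of Igkc and 143 CPM of Igll1.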
